A study of Mus musculus with 21 samples.

Results

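The 58 genes described here code for the machinery of mitosis and of the kinetochore: the kinases and cyclins that start mitosis, the spindle checkpoint, the kinetochore, the chromosomal passenger complex, mitotic kinesins, spindle and cytokinesis proteins and the proteins that condense chromosomes. They were taken by gene name, with no threshold on their values. All 58 were found among the 47643 genes of the count table, and all 58 were among the 15300 genes with at least 10 counts over all samples. QuantSeq libraries, which count tags near the 3′ end of transcripts, were made from splenic CD4+ T cells of Tg4 Nr4a3-Tocky Il10-GFP mice. These mice, labelled Tg4 Tiger Nr4a3-Tocky, carry a transgenic T cell receptor (TCR) for a myelin basic protein (MBP) peptide, a fluorescent Timer protein under Nr4a3 control that is blue when new and red when mature, and a green reporter of Il10, so that the controls carried all 3 transgenes too. The [4Y] MBP peptide was injected under the skin at a dose of 0.8 µg or 80 µg with no adjuvant, and cells were taken 4 h, 12 h or 24 h later. Control mice were untreated. With 3 mice in each of 7 groups, 21 libraries were made. Per the study's methods, the sort took Blue+Red− cells of both doses at 4 h. The 12 h cells were Blue+Red+, and for 24 h the Blue−Red+ cells were taken. The gate therefore changed with time, and the effect of time cannot be told apart from that of the gate. The age of the mice and the gate of the control cells were not given in the sources used here, and a transgenic TCR of 1 specificity limits these mice as a model of a polyclonal response.

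A naive T cell rests outside the cell cycle and enters it after antigen recognition. Most genes of this set are known to be silent in resting cells and to be transcribed late in the cycle, in G2 and M phase, after the genes of DNA replication. In G2, cyclin A and cyclin B activate Cdk1. The kinetochore is then built on the centromere to hold the spindle microtubules, the spindle checkpoint holds the anaphase-promoting complex until all chromosomes are attached, and the passenger complex around Aurkb corrects wrong attachments. The promoters of many such genes are known to carry a cell cycle genes homology region (CHR element), to which complexes built on the MuvB core bind, together with CCAAT boxes, which bind NF-Y. In resting cells the MuvB core is part of the repressive DREAM complex, and in G2 it works with Mybl2 and Foxm1 as an activator.

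The promoters of 7 central members are shown for the short sequence elements they hold, which are described further on. The sequences are RefSeq windows on GRCm38.p6 from 250 bases before to 50 bases after the transcription start, 5′ to 3′ along the gene. Capitals mark CHR elements (the letters TTTGAA on either strand, likewise the letters TTCGAA, and likewise the letters TTTAAA) and CCAAT boxes (CCAAT on either strand). The windows are those of Cdk1 (chr10:69352863-69353162, minus strand), Ccnb1 (chr13:100786437-100786736, minus strand), Ccnb2 (chr9:70421505-70421804, minus strand), Plk1 (chr7:122159185-122159484, plus strand), Aurka (chr2:172370521-172370820, minus strand), Cdc20 (chr4:118437294-118437593, minus strand) and Top2a (chr11:99024140-99024439, minus strand).
Cdk1: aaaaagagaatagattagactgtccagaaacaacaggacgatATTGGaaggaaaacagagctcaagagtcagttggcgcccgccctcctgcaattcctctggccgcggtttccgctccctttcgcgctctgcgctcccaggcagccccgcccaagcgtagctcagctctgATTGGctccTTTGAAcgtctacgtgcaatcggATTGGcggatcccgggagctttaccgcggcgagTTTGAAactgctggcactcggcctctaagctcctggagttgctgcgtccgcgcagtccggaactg
Ccnb1: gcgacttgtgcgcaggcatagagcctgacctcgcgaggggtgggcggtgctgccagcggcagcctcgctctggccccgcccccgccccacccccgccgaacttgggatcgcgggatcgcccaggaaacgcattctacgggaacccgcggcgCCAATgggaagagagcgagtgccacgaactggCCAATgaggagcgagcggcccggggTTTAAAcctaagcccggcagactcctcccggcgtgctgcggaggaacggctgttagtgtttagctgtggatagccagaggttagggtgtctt
Ccnb2: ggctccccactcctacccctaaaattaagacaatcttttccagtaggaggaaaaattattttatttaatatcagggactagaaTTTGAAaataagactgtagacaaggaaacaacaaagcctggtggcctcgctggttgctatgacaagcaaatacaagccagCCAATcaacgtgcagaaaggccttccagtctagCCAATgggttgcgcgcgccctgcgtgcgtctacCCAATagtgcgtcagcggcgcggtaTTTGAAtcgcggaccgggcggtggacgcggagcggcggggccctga
Plk1: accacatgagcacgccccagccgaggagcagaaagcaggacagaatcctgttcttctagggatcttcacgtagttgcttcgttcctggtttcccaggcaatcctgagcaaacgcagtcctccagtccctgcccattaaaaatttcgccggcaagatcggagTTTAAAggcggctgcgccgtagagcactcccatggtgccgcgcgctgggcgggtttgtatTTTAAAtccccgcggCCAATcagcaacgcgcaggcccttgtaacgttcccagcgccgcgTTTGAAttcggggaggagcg
Aurka: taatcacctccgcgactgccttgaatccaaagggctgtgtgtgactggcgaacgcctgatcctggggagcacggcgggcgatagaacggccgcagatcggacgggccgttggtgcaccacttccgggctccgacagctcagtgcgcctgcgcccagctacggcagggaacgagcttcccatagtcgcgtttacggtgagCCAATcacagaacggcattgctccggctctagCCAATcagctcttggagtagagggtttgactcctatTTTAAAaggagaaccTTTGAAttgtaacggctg
Cdc20: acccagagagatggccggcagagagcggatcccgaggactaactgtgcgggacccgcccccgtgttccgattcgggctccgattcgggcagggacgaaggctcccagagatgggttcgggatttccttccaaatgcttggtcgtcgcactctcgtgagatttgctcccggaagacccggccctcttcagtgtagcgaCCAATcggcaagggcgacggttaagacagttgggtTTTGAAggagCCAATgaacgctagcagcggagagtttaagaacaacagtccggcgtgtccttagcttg
Top2a: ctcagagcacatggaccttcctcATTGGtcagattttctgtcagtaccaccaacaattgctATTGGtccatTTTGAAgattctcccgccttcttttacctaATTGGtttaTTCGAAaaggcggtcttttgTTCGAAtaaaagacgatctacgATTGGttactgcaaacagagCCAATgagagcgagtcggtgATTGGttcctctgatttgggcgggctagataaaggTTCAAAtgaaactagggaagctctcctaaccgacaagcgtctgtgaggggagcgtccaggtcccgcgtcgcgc

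Cdk1, the kinase that drives mitotic entry, held 2 CHR elements, the nearer starting 15 bases before the transcription start, and 3 CCAAT boxes. In Ccnb1, whose cyclin activates Cdk1, 1 CHR element started 42 bases before the start and 2 CCAAT boxes were found. Ccnb2, the other mitotic B cyclin, held 3 CCAAT boxes and 2 CHR elements, the nearer of which began 4 bases after the start. Cdc20, the activator of the anaphase-promoting complex, had 1 CHR element 18 bases before the start. Top2a, the topoisomerase that untangles sister chromatids, held 6 CCAAT boxes and 4 CHR elements.

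Across the set, 48 of the 58 members had a RefSeq window, and 50 windows were searched because Ect2 and Prc1 have a pair each. The other 10 members are Aurkb, Ccna2, Cdc25c, Esco2, Foxm1, Incenp, Kif20a, Smc4, Spc24 and Tpx2. A CHR element was present in 42 windows (84%), against 28.8% of all 32851 windows of the same length. At least 1 CCAAT box was present in 36 windows (72%), against 37.4% of all windows, and both kinds of element in 35 windows (70%), against 11.3%. A CHR element that started between 60 bases before and 19 bases after the start was present in 28 windows (56%), against 7.9% of all windows. An E2F site (the letters TTTCGCGC on either strand, likewise the letters TTTGGCGC) was found in 3 windows (6%), against 0.813% of all. The CHR element and the CCAAT box shared a base in 1 member, Cdca8. These matches describe the letters of the windows and not binding.

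**Figure D1:**
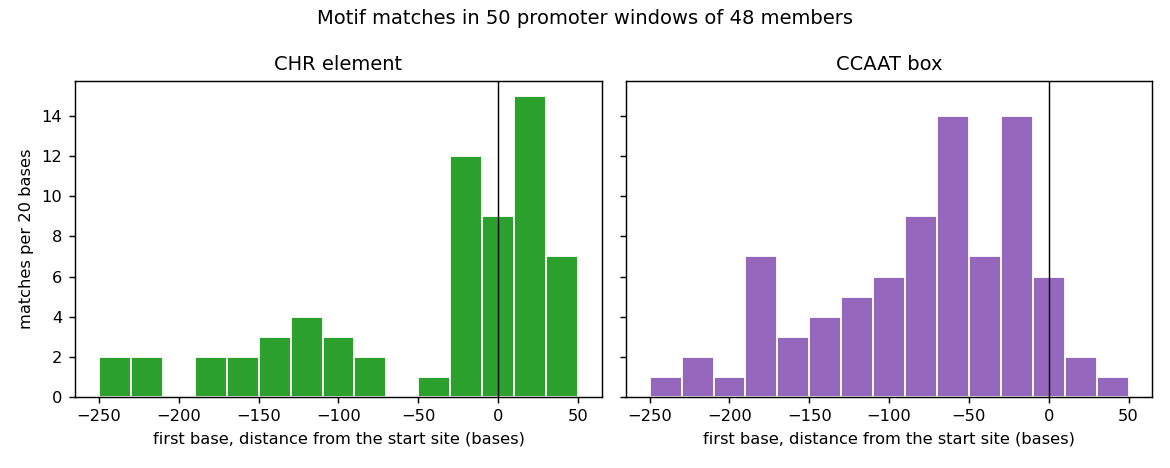
Positions of CHR elements (left) and CCAAT boxes (right) in the 50 promoter windows of 48 members. The horizontal axes give the distance of the first base of a match from the transcription start in bases, and the vertical axes the number of matches per 20 bases. Of 64 CHR matches, 43 started from 30 bases before to 49 bases after the start, against 23 of 82 CCAAT matches, whose median position was 65 bases before the start.

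Library totals ran from 2352800 to 6244279 counts, so that the floor of detection used here, 3 counts, lay between 0.48 and 1.28 CPM (counts scaled to the same library total). Every T cell marker of a list of 7 (among them Cd3e, Cd4 and Trac) was detected in every group, with a summed level of 1291 to 3096 CPM over libraries. Markers of other cell types were lower. Those of B cells summed to 2.03 to 84.3 CPM and those of erythroid cells to 5.31 to 212 CPM, with Klf1, a defining erythroblast factor, at 0 in all 7 groups. B cell markers were lower with 80 µg than with 0.8 µg at 24 h (7.53 to 17.1 against 27.0 to 37.5 CPM), with Cd79a at 0 in both, as were the CD8 markers Cd8a and Cd8b1 at 12 h (13.1 to 22.7 against 43.6 to 51.3 CPM) and at 24 h (20.1 to 28.8 against 34.3 to 40.9 CPM). At 12 h the B cell ranges overlapped. The markers of NK cells also separated by dose at 24 h (3.84 to 5.01 with 0.8 µg against 0 to 1.63 CPM), as did those of dendritic cells (0.264 to 0.886 CPM against 0). At 4 h those of monocytes and macrophages (11.2 to 33.2 CPM with 0.8 µg against 2.31 to 9.49 with 80 µg) and the sum for plasma cells (18.2 to 28.4 CPM with 0.8 µg against 33.2 to 39.2 with 80 µg) did so. The plasma cell sum was mostly Xbp1 (mean 21.7 CPM with 0.8 µg against 35.3 with 80 µg). Low levels were seen for Mzb1 (0.535 against 0.617), Sdc1 (0.176 against 0.566) and Jchain, which went the other way (0.298 against 0.0855). The sum of the T cell markers was itself lower with 80 µg at 4 h (1530 to 1667 against 1763 to 1912 CPM) and higher at 12 h (1630 to 1762 against 1291 to 1320 CPM). Single markers went the other way. Mean Trac (811 against 647 CPM) and Cd5 (72.4 against 66.9) were higher with 80 µg at 4 h. Mean Cd4 was lower with 80 µg at 12 h (165 against 243 CPM). The part of these cells in the results was not tested. The 0.8 µg library of replicate 3 at 12 h stood apart from the other pair of its group, with 25.7% of its counts on Gm42418 against 17.0% and 18.2%. Without it 25 members were called between the doses at 12 h (a call is defined below), where 330 of 11395 genes tested were. The count matched that of the full fit, but Prc1 and Hmmr lost their call and Cenpe and Incenp gained one. The median difference of the members was 1.24 in place of 1.08. Against the control 25 were called at 12 h with 0.8 µg in place of 29, where 4937 of 13168 genes tested were called. From 4 h to 12 h 28 were called in place of 31, where 2520 of 11986 genes were. To a smaller degree the 80 µg library of replicate 2 at 12 h also stood apart, with 24.5% of its counts on Gm42418 against 20.2% and 19.9%.

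The summed level of the members fell 4 h after peptide, rose from 4 h to 12 h and rose again to 24 h. In CPM, the 58 genes summed to 1791 ± 62.4 (SD, n = 3) in the control group, to 376 ± 13.2 with 0.8 µg and 346 ± 16.6 with 80 µg at 4 h, to 982 ± 89.0 and 1734 ± 64.1 at 12 h, and to 8520 ± 531 and 10604 ± 681 at 24 h. Libraries of neighbouring times did not overlap within a dose. The share of counts on mitochondrial genes moved as well, with 7.26% to 7.52% in the control group, 5.17% to 6.48% at 4 h, 5.00% to 6.09% at 12 h and 8.22% to 9.44% at 24 h, and at each time it was lower in every 80 µg library than in every 0.8 µg library. Its part in the results was not tested. Smc4, a core subunit of condensin, alone made up 77.2% ± 0.961 of the members' counts in the control group and 16.6% ± 0.956 with 80 µg at 24 h. Without Smc4 the sums were 409 ± 31.6 CPM in the control group, 182 ± 25.9 and 221 ± 12.5 CPM at 4 h, 632 ± 46.3 and 1219 ± 49.8 CPM at 12 h, and 6288 ± 690 and 8839 ± 585 CPM at 24 h. With normalised counts (counts divided by the DESeq2 size factor of the library), the mean sum with 80 µg was 1.78 times that with 0.8 µg at 12 h and 1.33 times at 24 h. In these bulk samples a larger share of dividing cells and more RNA per dividing cell cannot be told apart.

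**Figure D2:**
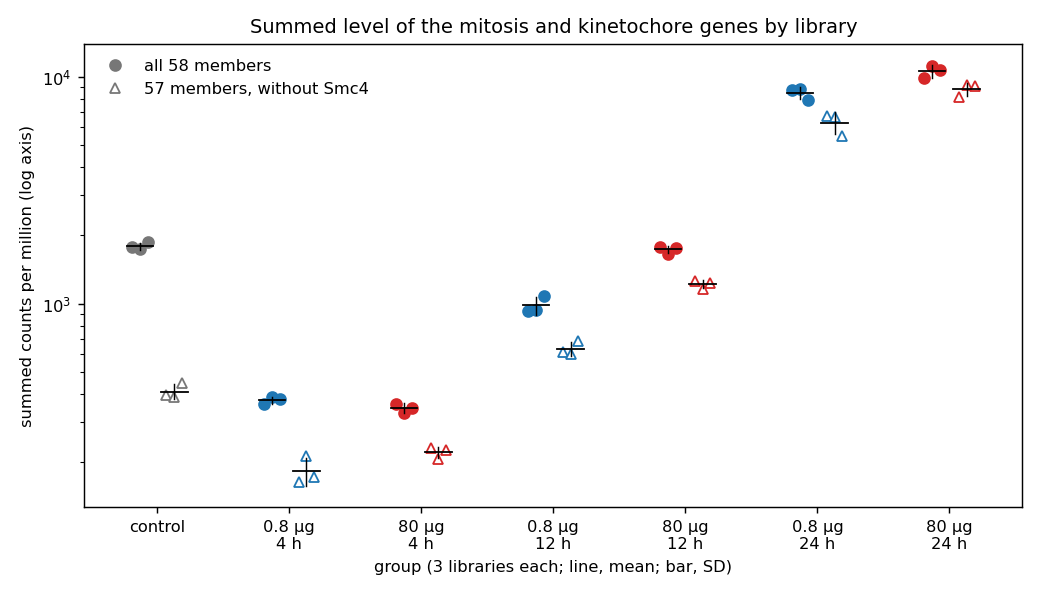
Summed CPM of the members in each of the 21 libraries, on a log axis, for all 58 members (filled circles) and for 57 members without Smc4 (open triangles). Horizontal lines are group means and vertical bars SD of 3 libraries. The 24 h libraries lie between 7908 and 11195 CPM, above all others, and the control libraries drop from about 1791 to 409 CPM on average once Smc4 is left out.

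The group mean of 57 of the 58 members was highest with 80 µg at 24 h. Smc4 was the exception, with its highest mean at 24 h after 0.8 µg. The lowest mean was at 4 h with 80 µg for 32 members and at 4 h with 0.8 µg for 18. Every library was at or under 3 counts for 6 members in the control group, for 23 and 28 members at 4 h with 0.8 and 80 µg, and for 5 and 0 members at 12 h. At 24 h no member was that low.

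**Figure D3:**
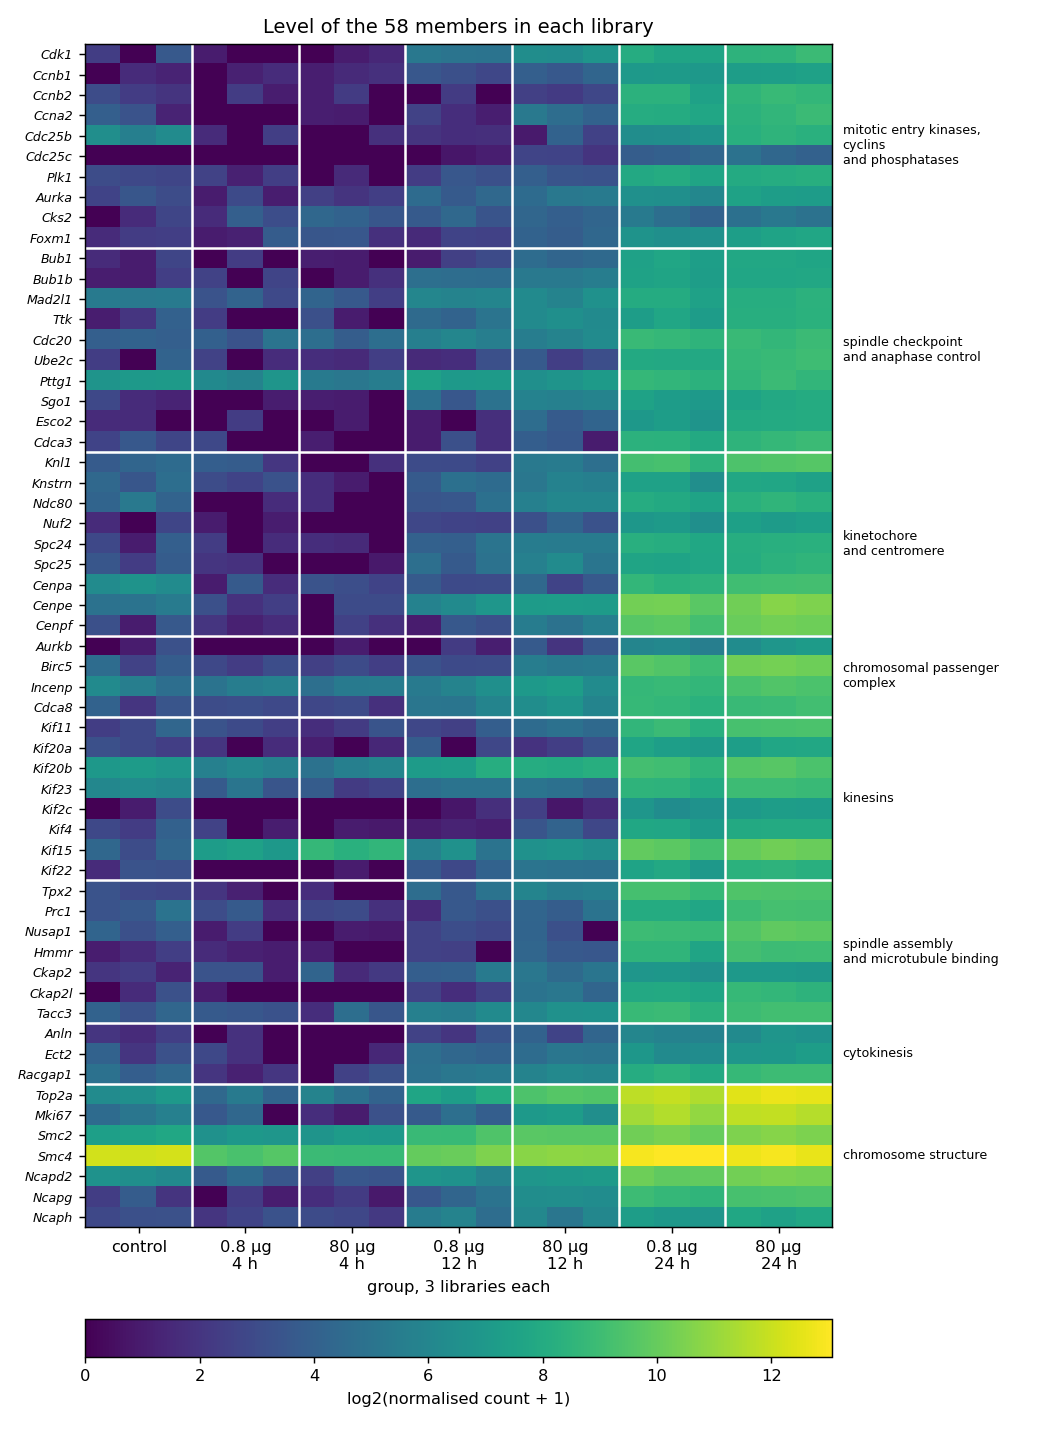
Level of each of the 58 members (rows, grouped by role) in each of the 21 libraries (columns, 3 per group), as log2(normalised count + 1). The brightest columns are those at 24 h, and Smc4 is bright in the control columns as well. Kif15 is brighter at 4 h than in the control and 12 h columns.

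The comparisons with the control asked how far the set had moved from the untreated state at each time. All 6 of them share the same 3 control libraries. At 4 h, 29 members were called lower and 1 higher with 0.8 µg, where 23.4% of 13518 genes tested were lower and 17.3% higher, and 34 members were called lower and 2 higher with 80 µg, where 25.1% and 18.4% of the genes were. A gene was called when its adjusted p was under 0.05 and its shrunken log2 fold change was above 1 in size. At 12 h, 21 members were called higher and 8 lower with 0.8 µg (background 17.2% and 20.5%), and 41 higher and 4 lower with 80 µg (17.8% and 20.1%). At 24 h, 56 members were called higher with 0.8 µg (background 11.5%, with 5.84% lower) and 57 with 80 µg (12.3%, with 7.91% lower), and no member was called lower. Between 4 h and 12 h, 30 members were called higher and 1 lower with 0.8 µg (background 12.6% and 7.98%), against 53 and 1 with 80 µg (15.7% and 9.1%). Between 12 h and 24 h, 57 of 58 were called higher with 0.8 µg (17.1%) and 56 with 80 µg (16.7%). Leaving out 1 library at a time gave 21 to 32 calls in either direction for 0.8 µg at 4 h against the control, in place of 30, and a fit with only these 2 groups gave 15.

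Several members were well above the floor in control T cells and fell after antigen. For Smc4, normalised counts were 4611, 4502 and 4755 in the 3 control libraries, 759, 628 and 775 at 4 h after 0.8 µg, and 486, 461 and 449 at 4 h after 80 µg. The groups did not overlap, and the control mean of 4622 was the highest outside the 24 h groups. Its fall against the control was -2.67 ± 0.11 (shrunken log2 fold change ± SE; adjusted p = 4.45e-130) with 0.8 µg and -3.30 ± 0.11 (2.46e-192) with 80 µg. At 12 h Smc4 stood at 1017, 1065 and 1469 with 0.8 µg and at 1685, 1804 and 1779 with 80 µg. At 24 h it reached 7568, 8551 and 8439 with 0.8 µg and 6818, 7623 and 6434 with 80 µg. All of these 24 h values lay above the control, but the log2 fold changes of 0.82 ± 0.10 and 0.59 ± 0.10 stayed under the size set for a call.

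Cenpa, the histone H3 variant that marks centromeres, held 77.3, 105 and 78.5 normalised counts in the control libraries. At 4 h it had 1.01, 11.9 and 2.16 with 0.8 µg and 9.26, 7.75 and 5.14 with 80 µg, all below the control. It was still low at 12 h, with 11.8, 6.77 and 7.04 after 0.8 µg and 20.1, 5.14 and 11.7 after 80 µg. Cenpa was therefore among the 4 members called lower than the control at 12 h with both doses, at log2 fold changes of -3.26 ± 0.33 (adjusted p = 2.83e-21) and -2.81 ± 0.29 (4.51e-20). At 24 h it rose to 399, 322 and 352 with 0.8 µg and 535, 549 and 573 with 80 µg. These values lay above every control library.

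Cdc25b, a phosphatase that removes the inhibitory phosphates of Cdk1, followed the same course. Its normalised counts were 87.6, 48.7 and 77.1 in the control libraries, 2.02, 0 and 4.32 at 4 h with 0.8 µg, and 0, 0 and 2.57 at 4 h with 80 µg. At 12 h they were 2.94, 2.26 and 2.35 with 0.8 µg and 0.914, 16.1 and 4.86 with 80 µg. The control thus exceeded all 4 h and 12 h libraries, and the fall at 4 h was -4.50 ± 0.53 (adjusted p = 5.36e-13) with 0.8 µg and -5.23 ± 0.59 (2.17e-11) with 80 µg. Cdc25b and Smc4 were the 2 members not called higher than the control at 24 h with 0.8 µg. Ncapd2, another condensin subunit, had a mean of 87.7 ± 13.4 (SD, n = 3) normalised counts in the control group and 15.1 ± 6.35 and 8.24 ± 3.18 at 4 h with 0.8 and 80 µg. Exons of Ncapd2 overlap those of other annotated genes on the same strand, whose reads may not be separable.

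Kif15, a kinesin that helps to hold the spindle poles apart, went the other way at 4 h. It had 19.6, 7.10 and 18.6 normalised counts in the control libraries, 146, 174 and 122 at 4 h with 0.8 µg and 412, 308 and 387 with 80 µg. Every 4 h library was above every control library, and the doses did not overlap. The rise over the control was 3.15 ± 0.36 (adjusted p = 3.63e-17) with 0.8 µg and 4.44 ± 0.36 (1.57e-33) with 80 µg. At 12 h Kif15 was lower than at 4 h, at 52.0, 97.8 and 30.5 with 0.8 µg and 95.0, 108 and 86.5 with 80 µg. It was the 1 member called lower between 4 h and 12 h with each dose, by -1.23 ± 0.31 (adjusted p = 4.13e-04) and -1.89 ± 0.30 (4.07e-09). The call with 0.8 µg was lost without the 0.8 µg library of replicate 3 at 12 h, or without all libraries of replicate number 1. At 24 h Kif15 stood at 954, 869 and 599 with 0.8 µg and at 999, 1179.7 and 1077 with 80 µg. Cks2, a small protein that binds Cdk1, was the only other member called higher at 4 h, with 80 µg alone (2.26 ± 0.62, adjusted p = 9.27e-04), and its difference between the doses at 4 h did not pass the test (0.90 ± 0.54, 0.344).

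Between the doses at 4 h, 1 member was called higher with 80 µg and 3 were called lower, where 3.12% of 10848 genes tested were higher and 2.74% lower. Kif15 was higher with 80 µg by 1.29 ± 0.30 (adjusted p = 3.16e-04). Knl1, the outer kinetochore scaffold that recruits checkpoint proteins, had 14.1, 13.2 and 3.24 normalised counts with 0.8 µg and 0, 0 and 2.57 with 80 µg, and the doses did not overlap. Its fitted difference was -2.42 ± 0.59 (adjusted p = 0.0029). These are 27 counts against 3 counts over the libraries, a ratio of 10.3 with an exact 95% counting interval of 3.17 to 53.0.

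Knstrn, which helps to align chromosomes and to separate sister chromatids, had 7.07, 5.27 and 8.63 normalised counts with 0.8 µg and 2.31, 0.969 and 0 with 80 µg. Here 19 counts stood against 3 counts, a ratio of 7.25 with an interval of 2.13 to 38.2, and the fitted difference was -1.96 ± 0.63 (adjusted p = 0.0258). Kif23, a kinesin of the central spindle, had 12.1, 32.9 and 9.71 with 0.8 µg and 12.7, 3.87 and 5.14 with 80 µg. The groups overlapped, and the difference of -1.23 ± 0.39 (adjusted p = 0.0179) was lost without the 0.8 µg library of replicate 2 (-0.64, adjusted p = 0.497). It was also lost without the 80 µg library of replicate 2 (-0.91, 0.164) or of replicate 3 (-0.98, 0.139). The call of Knstrn was lost without the 0.8 µg library of replicate 3 or without any of the 80 µg libraries, with adjusted p from 0.0755 to 0.168 and log2 fold changes from -2.05 to -1.36.

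Pttg1, securin, the inhibitor that holds separase until anaphase, had 71.7, 56.6 and 112 normalised counts at 4 h with 0.8 µg and 39.4, 34.9 and 45.4 with 80 µg. The groups did not overlap, and its difference of -0.99 ± 0.24 (adjusted p = 6.14e-04) was just under the size set for a call. It was called without the 0.8 µg library of replicate 1 (-1.08) or of replicate 2 (-1.18), or without the 80 µg library of replicate 3 (-1.08). Leaving out 1 library also gave a call at 4 h to Plk1, without the 80 µg library of replicate 2 (-1.69, adjusted p = 0.0484), and to Mki67, without the 0.8 µg library of replicate 3 (-1.65, 0.0286). Smc4 was lower with 80 µg by -0.63 ± 0.11, again under that size. For 19 members every library of both doses was at or under 3 counts at 4 h, so that no fold is given, and the median log2 fold change of the other 39 was -0.18, against -0.02 over all genes tested.

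The comparison of the doses at 12 h asked whether a stronger dose changed the first rise of these genes. With 80 µg, 25 of the 58 members (43.1%) were called higher and none was called lower, where 1.83% of 11145 genes tested were higher and 0.96% lower. On adjusted p alone 30 members were higher (3.67% of all genes). The log2 fold change was positive for 55 members, with a median of 1.08 against 0.01 over all genes tested. The libraries of the doses did not overlap for 35 members, all higher with 80 µg, against 10.8% of all genes tested. Without the 0.8 µg library of replicate 3 the count was again 25. It was 19 without either of the other 0.8 µg libraries, and 22 or 23 without 1 of the 80 µg libraries. In a fit with only these 2 groups, 12 members were called. Of the 25 members, 11 lost their call when at least 1 of these 6 libraries was left out: Foxm1, Ttk, Sgo1, Knstrn, Spc24, Spc25, Cdca8, Kif22, Tpx2, Prc1 and Hmmr.

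**Figure D4:**
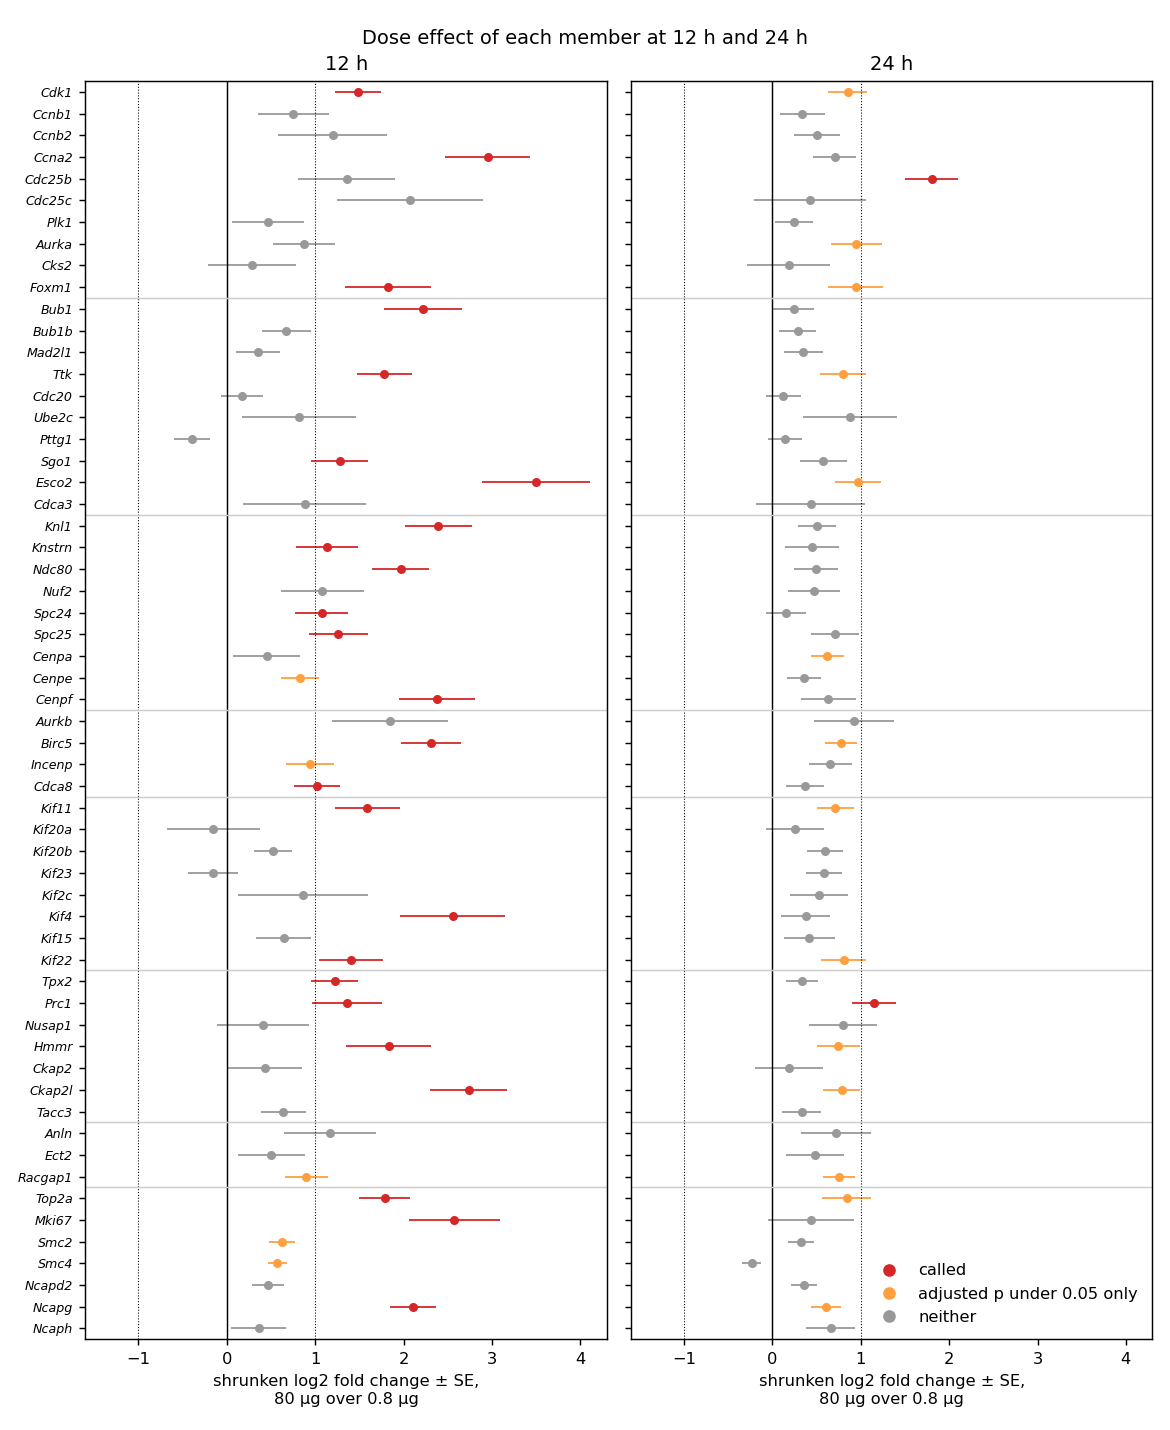
Shrunken log2 fold change of each member between 80 µg and 0.8 µg at 12 h (left) and 24 h (right), with bars of 1 SE. Grey lines separate the role groups, dotted lines mark a log2 fold change of 1 in either direction, and colours show which members were called. At 12 h the points spread from -0.39 (Pttg1) to 3.50 (Esco2). At 24 h they lie between -0.23 (Smc4) and 1.80 (Cdc25b).

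Among the 10 mitotic entry genes, 3 were called higher at 12 h, and all 10 differences were positive, from 0.28 to 2.95. Ccna2, the cyclin of S and G2 phase, had 4.90, 2.26 and 1.17 normalised counts with 0.8 µg and 38.4, 24.2 and 16.5 with 80 µg at 12 h. The lowest 80 µg library was above the highest 0.8 µg library, and the difference was 2.95 ± 0.48 (adjusted p = 7.59e-07). In the control it had 14.4, 9.13 and 1.43, and at 4 h it had 0 in all 0.8 µg libraries and 1.16, 0.969 and 0 in those of 80 µg. Cdk1 had 36.3, 31.6 and 30.5 with 0.8 µg and 85.0, 81.4 and 113 with 80 µg at 12 h. The doses were well apart (1.48 ± 0.26, adjusted p = 1.51e-06), and both were above the control (4.12, 0 and 11.4) and the 4 h libraries, of which the highest had 1.71. Foxm1, the transcription factor of G2 and M phase genes, had 1.96, 5.27 and 4.70 with 0.8 µg and 16.4, 13.2 and 19.4 with 80 µg, without overlap (1.82 ± 0.48, adjusted p = 0.00578). Its call was lost without the 0.8 µg library of replicate 1 (1.50, adjusted p = 0.0717). In the control Foxm1 had 2.06, 4.06 and 4.28, and at 4 h 1.01, 1.32 and 12.9 with 0.8 µg and 10.4, 10.7 and 2.57 with 80 µg, and exons of Foxm1 overlap those of other annotated genes on the same strand, whose reads may not be separable.

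The B cyclins and Plk1 did not pass the test at 12 h. Ccnb1 had 10.8, 8.27 and 5.87 normalised counts with 0.8 µg and 14.6, 11 and 18.5 with 80 µg. The groups did not overlap, but the difference was 0.75 ± 0.40 (adjusted p = 0.331). Ccnb2 had 0, 3.76 and 0 with 0.8 µg and 4.57, 3.67 and 5.83 with 80 µg (1.20 ± 0.62, 0.277). All of these Ccnb2 values were near the floor. Plk1, the kinase that acts at centrosomes, kinetochores and the cleavage site, had 3.92, 10.5 and 8.22 with 0.8 µg and 14.6, 9.54 and 8.75 with 80 µg, which overlapped (0.46 ± 0.40, 0.646). The control libraries, with 7.22, 6.08 and 5.71, were overlapped by the 0.8 µg group and lay below all 80 µg libraries, and neither dose was called against the control at 12 h. At 4 h Plk1 had 5.05, 1.32 and 4.32 with 0.8 µg and 0, 1.94 and 0 with 80 µg.

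In the earlier groups the B cyclins were low throughout. Ccnb1 had 0, 2.03 and 1.43 normalised counts in the control, 0, 1.32 and 2.16 at 4 h with 0.8 µg and 1.16, 1.94 and 2.57 with 80 µg. Ccnb2 had 7.22, 4.06 and 2.86 in the control, 0, 3.95 and 1.08 at 4 h with 0.8 µg and 1.16, 3.87 and 0 with 80 µg. Ccnb1 was called higher than the control at 12 h with each dose (2.17 ± 0.63 and 2.92 ± 0.61), and Ccnb2 was not (-1.29 ± 0.63 and -0.09 ± 0.53).

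Aurka, the kinase of the spindle poles, had 22.5, 12.0 and 20.0 normalised counts with 0.8 µg and 22.8, 36.0 and 40.8 with 80 µg at 12 h. The doses did not overlap, by a small margin, and the difference was not called (0.87 ± 0.35, adjusted p = 0.135). Both doses were above the control, which had 5.15, 10.1 and 7.14, and above the 4 h libraries, which had 1.01, 6.59 and 1.08 with 0.8 µg and 4.63, 2.91 and 4.29 with 80 µg. Cdc25c, a phosphatase that activates Cdk1, had no count in any control or 4 h library. At 12 h it had 0, 0.752 and 1.17 with 0.8 µg and 5.48, 5.14 and 2.92 with 80 µg, which are 2 counts against 16 and a ratio of 7.35 with an exact 95% counting interval of 1.73 to 65.9. Its difference was not called (2.07 ± 0.83, adjusted p = 0.194). Cdc25b was not called at 12 h either (1.36 ± 0.55, 0.131), and was without the 80 µg library of replicate 1 (1.84, 0.0236).

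Of the 10 genes grouped under spindle checkpoint and anaphase control, 4 were called higher with 80 µg at 12 h: Esco2, Bub1, Ttk and Sgo1. The grouping is broad, as Esco2 acts on cohesin and not in the checkpoint. Esco2, the acetyltransferase that locks cohesin onto sister chromatids, had the largest dose effect of all members. It had 0.98, 0 and 2.35 normalised counts with 0.8 µg and 24.7, 12.5 and 17.5 with 80 µg. The doses were far apart, with 3 counts against 62 over the libraries, a ratio of 19 with an exact 95% counting interval of 6.2 to 94.5, and the fitted difference was 3.50 ± 0.61 (adjusted p = 9.74e-05). Before 12 h it was at the floor, with 2.06, 2.03 and 0 in the control, 0, 3.95 and 0 at 4 h with 0.8 µg and 0, 0.969 and 0 with 80 µg. Bub1, a checkpoint kinase, rose by 2.22 ± 0.44 and Ttk (Mps1), the kinase that starts checkpoint signalling, by 1.78 ± 0.31, but the call of Ttk was lost without any library of the 12 h groups other than the 0.8 µg library of replicate 3, with adjusted p from 0.148 to 0.238 and log2 fold changes from 1.47 to 1.59.

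The other genes of this role changed less. Bub1b (BubR1), a part of the checkpoint complex that inhibits Cdc20, had 26.5, 24.8 and 23.5 normalised counts with 0.8 µg and 37.5, 37.4 and 45.7 with 80 µg at 12 h. The doses did not overlap, and the difference was 0.67 ± 0.28 (adjusted p = 0.148). The control had 1.03, 1.01 and 4.28, and the 4 h groups 5.05, 0 and 5.40 with 0.8 µg and 0, 0.969 and 2.57 with 80 µg, so that both 12 h groups were above them. Cdc20 had 48, 61.7 and 47.0 with 0.8 µg and 45.7, 55.8 and 77.8 with 80 µg, which overlapped (0.17 ± 0.24, 0.814). Its earlier values were 14.4, 16.2 and 14.3 in the control, 15.1, 9.22 and 31.3 at 4 h with 0.8 µg and 25.5, 13.6 and 25.7 with 80 µg. Pttg1 had 176, 126 and 137 with 0.8 µg and 91.4, 106 and 137 with 80 µg, the most negative dose effect of all members (-0.39 ± 0.20, 0.309). It had been at 109, 129 and 138 in the control.

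Of the 9 kinetochore and centromere genes, 6 were called higher at 12 h and all 9 differences were positive, from 0.45 to 2.39. Knl1 had 6.86, 6.77 and 4.70 normalised counts with 0.8 µg and 38.4, 42.6 and 26.2 with 80 µg. The doses did not overlap (2.39 ± 0.38, adjusted p = 6.77e-08), and the control values of 12.4, 18.3 and 22.8 lay between them. Against the control Knl1 was called lower at 12 h with 0.8 µg and higher with 80 µg. Ndc80, the microtubule-binding subunit of the outer kinetochore, was higher with 80 µg by 1.97 ± 0.33 and Cenpf, a large kinetochore protein of G2 and M phase, by 2.38 ± 0.43. Among the other subunits of the Ndc80 complex, Spc25 (1.26 ± 0.33) and Spc24 were called and Nuf2 was not (1.08 ± 0.47, 0.191).

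Spc24 had 15.7, 14.3 and 31.7 normalised counts with 0.8 µg and 43.8, 41.8 and 41.8 with 80 µg at 12 h. The lowest 80 µg library was above the highest 0.8 µg library, and the difference of 1.07 ± 0.30 (adjusted p = 0.00961) was lost without the 0.8 µg library of replicate 1 (0.93, 0.0999) or of replicate 2 (0.85, 0.161). It had 6.18, 1.01 and 14.3 in the control, 4.04, 0 and 2.16 at 4 h with 0.8 µg and 2.31, 1.94 and 0 with 80 µg. Knstrn had 11.8, 27.1 and 22.3 with 0.8 µg and 35.6, 54.3 and 48.6 with 80 µg, again without overlap (1.13 ± 0.35, 0.0274). This call was lost without the 0.8 µg library of replicate 1 (0.87, 0.233) or without the 80 µg library of replicate 2 (0.99, 0.164) or of replicate 3 (1.09, 0.0865). In the control Knstrn had 20.6, 10.1 and 25.7. Cenpa was low with both doses, as given above, and did not pass the test (0.45 ± 0.38, 0.619).

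In the chromosomal passenger complex, 2 of 4 subunits were called higher with 80 µg at 12 h, Birc5 and Cdca8. Birc5 (survivin) had 8.82, 6.77 and 7.04 normalised counts with 0.8 µg and 44.8, 36.0 and 40.8 with 80 µg. The 80 µg libraries were all above the 0.8 µg libraries, by 2.31 ± 0.34 (adjusted p = 5.24e-09). With 0.8 µg the level at 12 h was within the range of the earlier groups, which had 23.7, 5.07 and 12.8 in the control, 6.06, 3.95 and 7.55 at 4 h with 0.8 µg and 4.63, 6.78 and 4.29 with 80 µg. Aurkb, the kinase of the complex, had 0, 3.76 and 1.17 with 0.8 µg and 11.9, 2.93 and 10.7 with 80 µg. The groups overlapped near the floor and the difference was not called (1.84 ± 0.66, 0.0829), though it was without the 80 µg library of replicate 2 (2.24, 0.0308). Aurkb had 0, 1.01 and 8.57 in the control, 0 in every 4 h library with 0.8 µg, and 0, 0.969 and 0 with 80 µg. Cdca8 (borealin) was higher by 1.02 ± 0.26 (0.00281), and Incenp, the scaffold, by 0.94 ± 0.27 (0.013), under the size set for a call. Incenp was called without the 0.8 µg library of replicate 3 (1.25, 5.33e-04), which stood apart, or without the 80 µg library of replicate 3 (1.17, 7.75e-04).

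Of the 8 kinesins, 3 were called higher with 80 µg at 12 h: Kif4, Kif11 and Kif22, which is a chromosome-binding kinesin (1.41 ± 0.36). Kif4, which acts on chromosome arms and the central spindle, had 0.98, 1.5 and 1.17 normalised counts with 0.8 µg and 10.05, 16.9 and 5.83 with 80 µg. The doses did not overlap (2.55 ± 0.59, adjusted p = 0.00286), with the 0.8 µg libraries under the control values of 6.18, 4.06 and 15.7. At 4 h Kif4 had 5.05, 0 and 1.08 with 0.8 µg and 0, 0.969 and 0.857 with 80 µg. Kif11 (Eg5), the motor that pushes spindle poles apart, had 5.88, 4.51 and 14.1 with 0.8 µg and 22.8, 28.6 and 21.4 with 80 µg (1.59 ± 0.37, 7.18e-04). Here too no 80 µg library was as low as a 0.8 µg library, and Kif11 had 4.12, 6.08 and 18.6 in the control, 9.08, 6.59 and 4.32 at 4 h with 0.8 µg and 2.31, 3.87 and 9.43 with 80 µg.

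Kif20a and Kif23, both kinesins of the central spindle and cytokinesis, did not pass the test. Kif20a had 12.7, 0 and 5.87 normalised counts with 0.8 µg and 2.74, 4.4 and 8.75 with 80 µg at 12 h, which overlapped (-0.15 ± 0.52, adjusted p = 0.939). It was low in the control (8.25, 6.08 and 4.28) and at 4 h (3.03, 0 and 2.16 with 0.8 µg and 1.16, 0 and 1.71 with 80 µg). Kif23 had 25.5, 30.1 and 30.5 with 0.8 µg and 31.1, 27.1 and 18.5 with 80 µg (-0.16 ± 0.28, 0.871). All 6 of these values were below those of the control, which had 64.9, 77.1 and 64.2. Kif15 was 0.64 ± 0.31 higher with 80 µg (0.266), and was called without the 0.8 µg library of replicate 2 (1.17, 2.67e-04).

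Of the 7 genes of spindle assembly and microtubule binding, 4 were called higher with 80 µg at 12 h: Ckap2l, Hmmr, Prc1 and Tpx2. Ckap2l, a spindle protein, had 4.90, 2.26 and 4.70 normalised counts with 0.8 µg and 30.1, 35.2 and 18.5 with 80 µg. The doses did not overlap (2.73 ± 0.44, adjusted p = 2.44e-07). It had 0, 2.03 and 8.57 in the control, 1.01, 0 and 0 at 4 h with 0.8 µg and 0 in all libraries with 80 µg. Prc1, the protein that bundles antiparallel microtubules in the central spindle, had 1.96, 11.3 and 8.22 with 0.8 µg and 18.3, 13.2 and 30.1 with 80 µg at 12 h, without overlap (1.35 ± 0.40, 0.0145). Its call was lost without the 0.8 µg library of replicate 1 (0.93, 0.223) or of replicate 3 (1.35, 0.11), or without the 80 µg library of replicate 1 (1.42, 0.122) or of replicate 3 (1.01, 0.174). The earlier values of Prc1 were 9.28, 11.2 and 30.0 in the control, 7.07, 11.9 and 2.16 at 4 h with 0.8 µg and 5.79, 6.78 and 2.57 with 80 µg.

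None of the 3 cytokinesis genes was called at 12 h. Their differences were 1.16 ± 0.52 for Anln (adjusted p = 0.206), 0.90 ± 0.24 for Racgap1 (0.00566) and 0.50 ± 0.38 for Ect2 (0.571). Anln is an actin-binding scaffold of the cleavage furrow, and Ect2 and Racgap1 act in the placing of that furrow.

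Of the 7 chromosome structure genes, Top2a, Mki67 and Ncapg were called higher with 80 µg at 12 h. Top2a had 206, 151 and 257 normalised counts with 0.8 µg and 671, 772 and 724 with 80 µg. The doses were well apart (1.78 ± 0.29, adjusted p = 7.17e-08), and Top2a had 78.3, 89.2 and 128 in the control, 20.2, 39.5 and 17.3 at 4 h with 0.8 µg and 56.7, 28.1 and 17.1 with 80 µg. Exons of Top2a also overlap another annotated gene on the same strand. Mki67, the coat protein of mitotic chromosomes used as a marker of dividing cells, had 11.8, 26.3 and 14.1 with 0.8 µg and 134, 147 and 85.5 with 80 µg (2.57 ± 0.51, 3.24e-05). The 0.8 µg libraries overlapped the control, which had 22.7, 33.5 and 51.4, and the 80 µg libraries were above it. At 4 h Mki67 had 11.1, 19.8 and 0 with 0.8 µg and 2.31, 0.969 and 8.57 with 80 µg. Ncapg, a condensin subunit, was higher by 2.11 ± 0.26 (9.60e-14), whereas the condensin subunits Smc2 (0.63 ± 0.15, 0.00104) and Smc4 (0.57 ± 0.11, 8.59e-06) differed by less than the size set for a call.

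At 24 h both doses reached high levels, and the median difference between them was smaller than at 12 h. Some members, among them Cdc25b and Aurka, had a larger difference at 24 h. With 80 µg, 2 members were called higher and none lower, where 0.89% of 9663 genes tested were higher and 0.673% lower. Cdc25c was given no adjusted p at this time. On adjusted p alone 16 members were higher (3.73% of all genes). The log2 fold change was positive for 57 members, all but Smc4, with a median of 0.52 against 0.02 over all genes tested, and 45 members did not overlap between the doses, all of them higher with 80 µg, against 13.5% of all genes. Without the 0.8 µg library of replicate 2, Esco2 (1.15, adjusted p = 0.0119) and Kif22 (1.05, 0.0137) were called as well, which gave 4 members in place of 2. Cdk1 was called without the 0.8 µg library of replicate 1 (1.03, 0.0024).

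Cdc25b had the largest dose effect at 24 h, with 82.7, 85.8 and 104 normalised counts after 0.8 µg and 298, 361 and 313 after 80 µg. The lowest 80 µg library was well above the highest 0.8 µg library, and the difference was 1.80 ± 0.30 (adjusted p = 7.07e-07). With 0.8 µg it overlapped the control, and with 80 µg it was above it. Its call was lost without all libraries of replicate number 3 (adjusted p = 0.333). Prc1 had 259.9, 264 and 212 after 0.8 µg and 488, 586 and 577 after 80 µg (1.15 ± 0.25, 3.24e-04). It was the 1 member called at both 12 h and 24 h.

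The next largest differences at 24 h were those of Esco2, with 123, 153 and 107 normalised counts after 0.8 µg and 242, 249 and 264 after 80 µg (0.97 ± 0.26, adjusted p = 0.00656), and of Aurka, with 93.5, 90.5 and 64.0 against 182, 153 and 149.8 (0.95 ± 0.29, 0.0242). Foxm1 had 102, 90.5 and 96.0 after 0.8 µg and 159, 192 and 210.2 after 80 µg (0.94 ± 0.31, 0.0445). In all 3 genes the doses did not overlap, and the differences were just under the size set for a call. Cdk1 had 267, 196 and 196 after 0.8 µg and 352, 362 and 479 after 80 µg (0.85 ± 0.22, 0.00368), and Top2a had 3451, 3807 and 2940.1 against 5671, 6583 and 6213 (0.84 ± 0.28, 0.0494). Birc5 had 853, 730.1 and 513 against 1186, 1274 and 1155 (0.78 ± 0.18, 9.25e-04). These 3 genes also held the doses apart in every library.

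A further group was also higher with 80 µg in every library. Kif11 had 383, 473 and 299 normalised counts after 0.8 µg and 617, 637 and 648 after 80 µg at 24 h (0.71 ± 0.21, adjusted p = 0.0166), and Ckap2l had 232, 244 and 206 against 426, 404 and 351 (0.78 ± 0.21, 0.0077). Cenpa differed by 0.62 ± 0.19 (0.0242). Each of these 3 passed on adjusted p alone. Ccna2 had 267, 257 and 212 after 0.8 µg and 339.7, 392 and 471 after 80 µg (0.70 ± 0.24, 0.0619), and Kif23 had 357, 349 and 251 against 494, 489 and 457 (0.58 ± 0.20, 0.0599). Aurkb had 61.3, 68.1 and 46.5 against 80.0, 117 and 144 (0.92 ± 0.45, 0.281). None of these last 3 passed the test.

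The B cyclins did not pass the test at 24 h, though the doses did not overlap in either. Ccnb1 had 129, 136 and 123 normalised counts after 0.8 µg and 152, 160.4 and 179 after 80 µg (0.34 ± 0.25, adjusted p = 0.551). Ccnb2 had 337, 340.4 and 178 against 375, 438 and 406 (0.50 ± 0.26, 0.303), with the 0.8 µg library of replicate 3 lower than the other pair. That library also had the lowest summed level of its group. Knl1 had 576, 619 and 346 after 0.8 µg and 676, 743 and 780.2 after 80 µg (0.51 ± 0.21, 0.164), and Knstrn had 179, 179 and 86.7 against 224, 213 and 176 (0.45 ± 0.30, 0.493). Knl1 did not overlap between the doses and Knstrn did. Mki67 had 2467, 3028 and 2002 against 3544, 3669 and 3115 (0.44 ± 0.48, 0.729) and Kif4 had 220.0, 211 and 142 against 243, 251 and 253 (0.38 ± 0.28, 0.549). In both the doses did not overlap. Bub1b had 182, 199 and 155 against 209, 215 and 229.9 (0.29 ± 0.21, 0.542), again without overlap.

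In signed order, the lowest dose effects at 24 h were those of Smc4, Cdc20, Pttg1 and Spc24. Cdc20 had 465, 412 and 364 normalised counts after 0.8 µg and 468, 407 and 479 after 80 µg (0.12 ± 0.20, adjusted p = 0.835). Pttg1 had 415, 388 and 330.3 against 386, 478 and 388 (0.14 ± 0.19, 0.781), and Spc24 had 306, 282 and 219.9 against 284, 306 and 309 (0.15 ± 0.23, 0.814). The doses overlapped in each, as they did for Plk1, with 238, 263 and 196 against 255, 273 and 295 (0.24 ± 0.22, 0.653), and for Kif20a, with 204, 161 and 139 against 161, 213 and 229 (0.25 ± 0.33, 0.781). Smc4, given above, was 0.23 ± 0.10 lower on the log2 scale with 80 µg (0.199). Cdc25c had 13.6, 14.9 and 18.6 against 29.6, 19.9 and 15.4, which overlapped (0.43 ± 0.63).

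**Figure D5:**
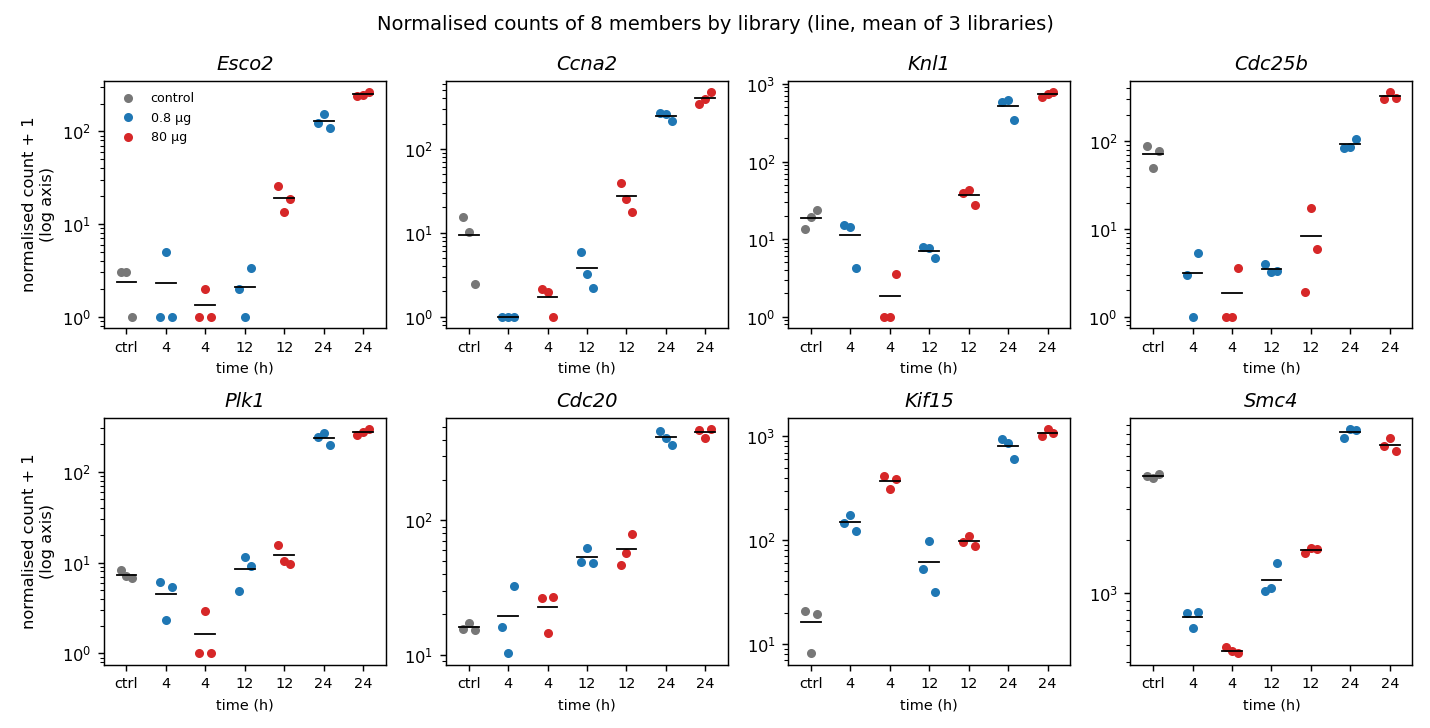
Normalised count + 1 (log axis) of 8 members in each library, by time after peptide, with the control (ctrl) in grey, 0.8 µg in blue and 80 µg in red. Lines are means of 3 libraries. Esco2, Ccna2 and Knl1 separate by dose at 12 h, Cdc25b separates at 24 h, Plk1 and Cdc20 overlap between doses at both times, Kif15 is high at 4 h, and Smc4 is high in the control.

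A change of the dose effect over time was tested in its own right. The likelihood ratio test of the interaction over the 18 immunised libraries passed for 15 of 57 members tested (26.3%), where 10.4% of 9958 genes passed. The contrast of the dose effect at 24 h minus that at 12 h passed for 11 members, all with a smaller effect of dose at 24 h, where 1.18% of 9663 genes were lower and 1.46% higher. These 11 are Ccna2, Bub1, Esco2, Knl1, Ndc80, Cenpf, Birc5, Kif4, Ckap2l, Smc4 and Ncapg, and all of them passed the interaction test too. The largest differences were those of Esco2 (-3.27 ± 0.92, adjusted p = 0.021), Kif4 (-2.79 ± 0.85, 0.0429) and Ccna2 (-2.52 ± 0.61, 0.00404), on the unshrunken log2 scale. Both dose effects used here enter the contrast, so the calls at 12 h above are not independent of it. The count of 11 fell to 6 without the 0.8 µg library of replicate 1 at 12 h and to 7 without the 80 µg library of replicate 3 at 24 h. Without the 0.8 µg library of replicate 3 at 12 h the count of 15 rose to 25 and that of 11 became 13.

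How much of the 24 h level was present at 12 h differed among the members. The 12 h mean, as a percentage of the 24 h mean at the same dose, had a median over members of 6.34% with 0.8 µg and 9.65% with 80 µg. With 80 µg it ran from 1.01% for Nusap1, a microtubule-binding protein, and 1.15% for Ccnb2 to 54.4% for Smc2 and 56.2% for Cks2. Ccnb2, Kif2c, Ube2c, Cdca3 and Cenpa were at or under 2.23% with 80 µg, while Cdk1 (23.4%) and Ttk (26.7%) were further along. Smc4 stood at 25.2%. However, Smc4 and Cenpa were called lower than the control at 12 h with both doses, so that their shares do not measure a rise above the control. By role, the median with 80 µg was lowest for the kinesins (4.85%) and highest for the spindle checkpoint and anaphase genes (15.8%). With 0.8 µg the spindle assembly genes were lowest (2.92%), followed by mitotic entry genes (4.11%) and kinesins (4.97%), and the spindle checkpoint and anaphase genes were again highest (13.1%). The ranges of all roles overlapped. For 39 genes of S phase entry and DNA replication, listed for comparison, the medians were 57.9% with 0.8 µg and 64.9% with 80 µg. They were 8.23% and 14.4% for 29 other mitotic kinases, spindle and cytokinesis genes, and 40.2% and 45.3% for 18 other kinetochore and checkpoint genes. The constitutive centromere network and Cenpa loading had 25.1% and 33.1%, and condensin II and cohesin 81.3% and 69.7%. The anaphase-promoting complex had 77.6% and 83.5%, and the MuvB and DREAM regulators 67.8% and 57.4%. Condensin II and cohesin, the anaphase-promoting complex and the MuvB and DREAM regulators differed little from the control at 24 h. Their median log2 fold changes were 0.35, 0.43 and 0.39 with 0.8 µg, against 3.40 for the S phase list. With 80 µg they were 0.70, 0.63 and 0.71, against 3.49. A high share in these lists is therefore not an early rise. These shares were not tested, and the gate differs between 12 h and 24 h.

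Other genes of the pathway were counted from fixed lists. Of the 39 S phase genes, 35 and 39 were called higher than the control at 12 h with 0.8 and 80 µg (17.2% and 17.8% of all genes), and 7 were called higher with 80 µg than with 0.8 µg at 12 h (background 1.83%), led by Ccne2 (2.50 ± 0.42), a cyclin of S phase entry, Rrm2 (2.02 ± 0.25), a subunit of ribonucleotide reductase, and Cdc6 (1.37 ± 0.23), a replication licensing factor. At 24 h the median difference of the list was 0.27. Of 29 other mitotic kinases, spindle and cytokinesis genes, 11 were called higher with 80 µg at 12 h, with a median log2 fold change of 1.31, led by Pbk (2.83 ± 0.51), Kif14 (2.19 ± 0.51) and Troap (2.09 ± 0.61), and 2 at 24 h (background 0.89%), Pbk (1.24 ± 0.38) and Ccnf (1.06 ± 0.32). Of 18 other kinetochore and checkpoint genes, 3 were called at 12 h: Ska1 (3.44 ± 0.55), which binds microtubules at the kinetochore, Kntc1 (1.25 ± 0.40) and Sgo2a (1.13 ± 0.28). Some of these folds start near the floor. With 0.8 µg at 12 h the mean normalised count was 2.15 for Ska1, 2.36 for Troap and 2.98 for Kif14. At 4 h Mad2l1bp of this list was called higher with 80 µg (1.12 ± 0.41, adjusted p = 0.0457; background 3.12%).

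Of 19 genes of the constitutive centromere network and of Cenpa loading, 2 were called higher at 12 h (1.83% of all genes), Cenpi (1.79 ± 0.58) and Cenph (1.41 ± 0.24). Cenpi was also called higher with 80 µg at 4 h (2.50 ± 0.69, adjusted p = 0.0101), where the share over all genes was 3.12%. Its mean normalised count at 4 h was 1.21 with 0.8 µg, near the floor, and 11.6 with 80 µg. In condensin II and cohesin, 1 of 12 genes was called higher at 12 h, Ncapg2 (1.30 ± 0.22), against the same 1.83%. The 17 core subunits and regulators of the anaphase-promoting complex had median differences of 0.05 at 12 h and 0.15 at 24 h. Fbxo5, its inhibitor, passed on adjusted p alone (0.94 ± 0.27 at 12 h and 0.97 ± 0.17 at 24 h). Anapc11 (0.55 ± 0.18) and Anapc5 (0.42 ± 0.12) also did so at 24 h. Among 12 MuvB and DREAM regulators, Mybl2, the activator that joins MuvB, was the 1 called higher at 12 h (2.98 ± 0.67, adjusted p = 0.00101), again against 1.83%, and the median of that list was 0.02.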

How the data were processed

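RNA was counted in 21 libraries, 3 mice in each of 7 groups assigned from the GEO labels. The deposited counts are raw reads per gene: per the study's methods the authors trimmed reads with Bbduk, aligned them with STAR 2.5.2a (named in the submitters' processing notes) to mm10 and counted them with HTSeq. The strand setting and the annotation release were not given in the sources used here, so reads of the 16 members whose exons overlap a gene on the opposite strand may not be separable from it. The deposited log2 values (regularised logarithm, by the authors) were used for gene names and for the check of replicate numbers only. As in the study, DESeq2 was used (here 1.42.0 in R 4.3.3), on genes with at least 10 counts in total and with shrunken log2 fold changes (normal prior). The fit, chosen here, was a Wald test on all 21 libraries with 1 coefficient per group and Benjamini-Hochberg adjustment over all genes tested. A gene was called at an adjusted p under 0.05 and a shrunken log2 fold change over 1 in size. The interaction was a likelihood ratio test over the 18 immunised libraries, and the difference of dose effects an unshrunken contrast. The fits were tested on simulated data. Counting intervals are exact and, like the floor of 3 counts, cover counting error only.

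The members and lists were chosen with earlier results of these data known. Values in every library are given for 12 regulators, for the 4 highest and 4 lowest dose effects (in signed order) at 12 h and at 24 h, for the 4 largest differences between these times and for members called at 4 h. Other members named beside their role are examples. Alternatives were edgeR 4.0.16, TMM factors, other filters, unshrunken folds, adjusted p alone, thinning to the smallest library, a replicate block, fits with only the groups compared and leaving out libraries. Promoter windows came from RefSeq on GRCm38.p6 and were searched for the letters given in the text.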

Additional observations from a re-analysis of the deposited data

Results flagged for a closer look

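The effect of dose differed between the 3 times, by the interaction test over the immunised libraries, for 15 members. The range of the shrunken log2 dose effect over the 3 times was 4.81 for Knl1, 3.61 for Mki67, 3.54 for Kif4, 3.09 for Knstrn, 2.49 for Birc5 and 2.28 for Cenpf. It was 1.81 for Kif23, 1.80 for Ncapg, 1.20 for Smc4 and 1.14 for Pttg1. The 4 h effect of Kif4 rests on 6 counts with 0.8 µg against 2 counts with 80 µg. Their ratio was 3.43, with an exact 95% counting interval of 0.614 to 34.8. At 12 h the 0.8 µg libraries held 1, 2 and 1 counts of Kif4, under the floor of 3 counts. Esco2, Ccna2, Bub1, Ckap2l and Ndc80 were at or under 3 counts in every 4 h library, so that their range is between 12 h and 24 h alone, with 2.53 for Esco2, 2.25 for Ccna2, 1.98 for Bub1, 1.95 for Ckap2l and 1.47 for Ndc80. For Knl1 the dose effect was negative at 4 h and positive at 12 h, and for Pttg1 and Kif23 it was lowest at 4 h. The gate differed between the times.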

How the results depend on the processing

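The number of members called between the doses was 4, 25 and 2 at 4 h, 12 h and 24 h. With only the groups compared in the fit it was 2 at 4 h and 12 at 12 h, and for 0.8 µg at 4 h against the control it was 15 in place of 30. In these fits 23, 57 and 51 of the 58 members were tested, against all 58 otherwise. At 24 h it was 16 on adjusted p alone and 4 after thinning to the smallest library. Leaving out 1 library, or all libraries of 1 replicate number, gave 2 to 5 members at 4 h, 12 to 25 at 12 h and 1 to 4 at 24 h, and 19 to 32 for 0.8 µg at 4 h against the control. It gave 1 to 16 members in place of 11 for the contrast of 24 h with 12 h dose effects, and 6 to 25 in place of 15 for the interaction. The causes were not tested. With edgeR the counts were 4, 25 and 2, with 13 for the contrast and 16 for the interaction. Of the 25 calls at 12 h, 8 held in every alternative run (Cdk1, Esco2, Knl1, Ndc80, Birc5, Ckap2l, Top2a and Ncapg), as did that of Prc1 at 24 h, and none of the 4 calls at 4 h did. Direction was followed gene by gene for the 29 members with values given in every library, in the dose comparisons only. None of these reversed its direction in a called result. No clear pairing of libraries by replicate number was seen, though pairing was not excluded. Of same-number pairs of deviations, 19 of 63 correlated above 0.1, with a median of -0.02. Of pairs with different numbers, 29 of 126 did so, with a median of 0.002. Of 21 libraries, 7 correlated best with their own number. A replicate block gave 4, 22 and 2 members at the 3 times, 8 for the contrast and 13 for the interaction. At 4 h, 19 members were at or under 3 counts in every library of both doses, so that no fold is given for them.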
